A study of Mus musculus with 2 samples.

Results

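The Gadd45 family (named for growth arrest and DNA damage) has 3 genes, Gadd45a, Gadd45b and Gadd45g, and is described here in mouse liver after adenoviral delivery of PDK4. The 3 genes were taken by name, as a family chosen with earlier results from these arrays known, and they are 3 of 18193 genes named on the array. They are read by 5 probe sets, of which 3 belong to Gadd45b. Because their differences between the pools were known when they were chosen, the values below are descriptions with no test.

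Livers came from C57BL/6J mice, 2 months old, on day 3 after 1000000000 plaque-forming units of adenovirus per mouse, injected into the tail vein. The Ad-PDK4 group (3 mice) received a vector that overexpresses PDK4, pyruvate dehydrogenase kinase 4, and the Ad-control group (4 mice) an empty vector, so that both groups carried virus. RNA was pooled within each group and hybridised to 1 array per pool, so n = 1 per group: the variation between mice is unknown, no p-value was computed, and every value describes these pools.

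Gadd45 proteins are small, acidic, mostly nuclear proteins without enzymatic activity of their own, which act by binding others. They bind the replication clamp PCNA, the inhibitor p21 (gene Cdkn1a) and the mitotic kinase Cdk1, and they switch on the kinase MTK1 (gene Map3k4) at the head of the p38 and JNK stress cascades. Gadd45a is a classic target of p53, Gadd45b is induced by NF-kB, by transforming growth factor beta and during liver regeneration, and Gadd45g is a cytokine-responsive member. All 3 are kept low in unstressed cells and induced quickly.

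The promoters are shown because this induction is set largely at transcription, and because the members differ in the motifs they hold. The stretches are the 250 bases before the RefSeq start, in assembly GRCm38.p6, written in the direction of the gene. They lie at chr6:67037408-67037657 on the minus strand for Gadd45a, at chr10:80929841-80930090 on the plus strand for Gadd45b and at chr13:51846425-51846674 on the plus strand for Gadd45g. Capitals mark the octamer ATTTGCAT (the motif of Oct-1), the CCAAT box (CCAAT) and the TATA box (TATAAA), searched on both strands, and no marked motifs overlap.

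Gadd45a: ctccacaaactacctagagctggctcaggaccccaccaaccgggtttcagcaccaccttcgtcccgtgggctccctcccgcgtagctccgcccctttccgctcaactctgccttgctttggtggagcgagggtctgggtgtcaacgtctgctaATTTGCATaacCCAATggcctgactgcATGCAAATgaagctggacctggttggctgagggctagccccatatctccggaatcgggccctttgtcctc
Gadd45b: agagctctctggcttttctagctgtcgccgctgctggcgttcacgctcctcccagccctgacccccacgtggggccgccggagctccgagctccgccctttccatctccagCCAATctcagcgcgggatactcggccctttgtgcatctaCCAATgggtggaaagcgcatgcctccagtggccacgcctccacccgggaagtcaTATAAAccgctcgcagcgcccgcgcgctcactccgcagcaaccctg
Gadd45g: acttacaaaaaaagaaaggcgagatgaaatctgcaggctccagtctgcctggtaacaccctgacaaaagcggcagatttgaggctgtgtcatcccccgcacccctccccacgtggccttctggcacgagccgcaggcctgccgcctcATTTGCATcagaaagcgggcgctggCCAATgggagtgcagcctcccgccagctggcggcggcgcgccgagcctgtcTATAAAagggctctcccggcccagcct

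Gadd45a held the octamer at 2 places, 97 and 70 bases before the start, with a CCAAT box between them at 86, and had no TATAAA. Gadd45g held 1 octamer (103 bases before the start), a CCAAT box (78) and a TATA box (27). Gadd45b had no octamer, but 2 CCAAT boxes (139 and 100) and a TATA box (46). Of 32851 promoter windows of this length in the RefSeq table, 1.6% held an octamer and 0.0974% held more than 1, while 33.9% held a CCAAT box and 12.4% TATAAA. The E-box CACGTG was present once in Gadd45b and once in Gadd45g, against 6.02% of windows. The cyclic AMP element TGACGTCA, the AP-1 motif TGANTCA, the FoxO motif TGTTTAC and the NF-kB motif had 0 matches in the 3 windows, on either strand. A match describes the letters only, and the arrays do not show which factors bound.

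The measured quantity is the signal intensity of a probe set, a group of short probes against a transcript, on a linear scale in arbitrary units. A signal was taken as measurable at or above a floor, the 50th percentile of all non-control probe sets, which was 99.9 on the Ad-PDK4 array and 93.4 on the Ad-control array. Differences are log2(Ad-PDK4) minus log2(Ad-control), centred on the median over 20151 probe sets above both floors. Brightness differs between probes for technical reasons, so signals of different genes are not compared as amounts. The error scale is how far probe sets for 1 gene disagree, a pooled SD of 0.35 on the log2 scale over 4326 genes, which leaves out all error shared by a pool or an array. The spike-in controls set the limits of the centring: relative to the centre used here, all genes would be 0.26 higher if the hybridization controls were set to 0, and 0.54 higher with the poly-A controls. The 3'/5' signal ratio, a sign of RNA integrity, was 5.46 on the Ad-PDK4 array and 4.88 on the Ad-control array for beta-actin, and 0.806 on the Ad-PDK4 array and 0.785 on the Ad-control array for Gapdh. Pdk4, the gene the vector carries, had a signal of 177.0 in the Ad-PDK4 pool and 234.4 in the Ad-control pool, so the arrays do not show its overexpression. Whether its probe set reads the transcript of the vector is not known, and groups are called by their labels.

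The 3 genes differed in direction. Gadd45b was higher in the Ad-PDK4 pool, Gadd45g was lower, and Gadd45a differed little. With 1.5-fold as the mark, 1 of the 3 was higher, 1 was lower and 1 lay within it, and their median log2 difference, with the bound of Gadd45b counted at its value, was 0.24. Among all 12121 named genes measured on at least 1 array, 11.0% lay at or past 1.5-fold on the higher side and 5.58% on the lower side, and the median over all of them was 0.031. A bound under 1.5-fold is not counted as past it, nor as within it.

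**Figure D1:**
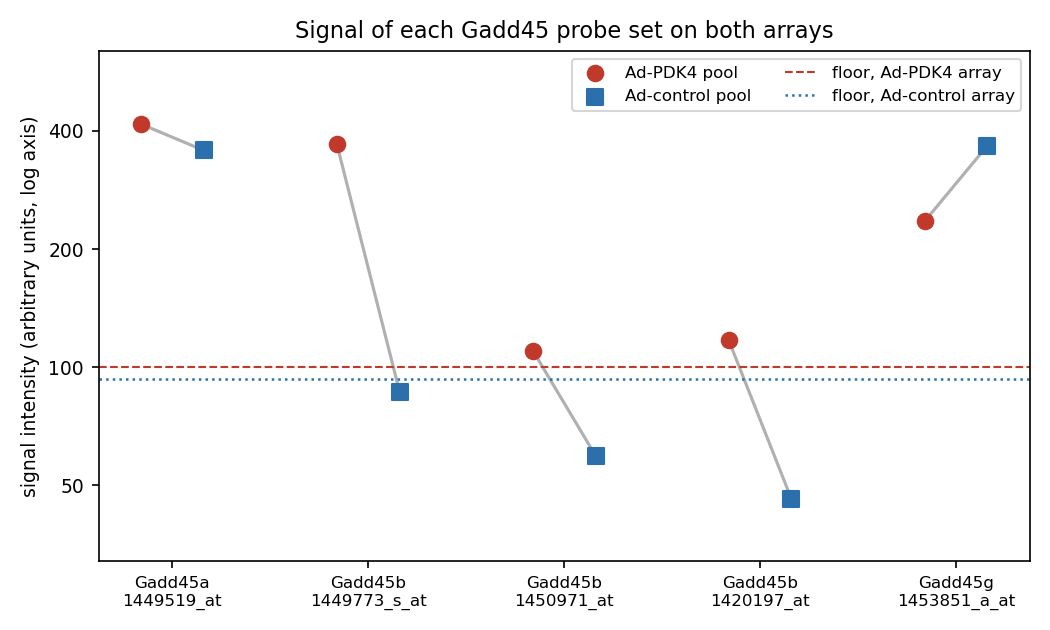
Signal intensity (log axis) of the 5 Gadd45 probe sets in the Ad-PDK4 pool (circles) and the Ad-control pool (squares), 1 array each, with the floor of each array as a line. All 3 Gadd45b probe sets lie above the floor in the Ad-PDK4 pool and below it in the Ad-control pool, Gadd45a (416.3 against 356.7) is nearly level, and Gadd45g (235.5 against 366.9) is lower in the Ad-PDK4 pool.

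Gadd45b, the member first described as a myeloid differentiation primary response gene (Myd118), was below the floor in the Ad-control pool. Its brightest probe set (1449773_s_at) gave a signal of 369.4 in the Ad-PDK4 pool and 86.5 in the Ad-control pool. The signal was 3.70 times the floor on the Ad-PDK4 array and 0.926 times the floor on the Ad-control array. Since the control value can only be bounded, this probe set was at least 4.00-fold higher in the Ad-PDK4 pool at this floor, a log2 difference of at least 2.00.

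The other 2 probe sets of Gadd45b were dimmer and stood on the same sides of the floor. Probe set 1450971_at gave 110.2 in the Ad-PDK4 pool and 59.5 in the Ad-control pool. Probe set 1420197_at gave 117.0 in the Ad-PDK4 pool and 46.1 in the Ad-control pool. Both signals in the Ad-PDK4 pool were within 1.2 times the floor, so these probe sets allow only bounds of at least 1.19-fold and at least 1.27-fold. Taken without a floor, the log2 differences of the 3 probe sets were 2.11, 0.90 and 1.36, all above 0, but each of them rests on a control signal below the floor.

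The size of the Gadd45b difference rests on the brightest probe set, whose ID ends in _s_at, the mark of probes that can match more than 1 transcript. Without probe sets of that kind the bound was a log2 difference of 0.25, under the 1.5-fold mark. Raising the floor to the 70th percentile of each array gave 0.40. Gadd45b was higher in the Ad-PDK4 pool in every setting that gave a value, while the size varied this much. Where only its Ad-PDK4 signal was above the floor, the bound is above 0 by construction, so those settings do not test the direction.

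Gadd45a, the p53-responsive founder of the family, was measurable in both pools. Its only probe set gave 416.3 in the Ad-PDK4 pool and 356.7 in the Ad-control pool. The pools differed 1.18-fold, a log2 difference of 0.24, which is smaller than the probe set SD of 0.35. Gadd45a lay past 1.5-fold only when the poly-A controls were set to 0, where it gave 0.78.

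Gadd45g, the cytokine-responsive member (CR6), was also measurable in both pools and ran the other way. Its only probe set gave 235.5 in the Ad-PDK4 pool and 366.9 in the Ad-control pool. The gene was 1.54-fold lower in the Ad-PDK4 pool, a log2 difference of -0.63, or 1.78 times the probe set SD. This lies just past the 1.5-fold mark. It was -0.37 with the hybridization controls set to 0 and -0.083 with the poly-A controls set to 0, and a floor at the 70th percentile left only a bound of -0.31, so the call at 1.5-fold ended in each of these.

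Since the spread of differences can vary with brightness, each gene was also set beside the 500 named genes of closest mean signal. Of the genes near Gadd45a, 63.2% lay as far from 0 as it did. Of those near Gadd45g, 18.4% lay as far from 0, and 5% (25 genes) were as low. The neighbours of Gadd45g had a median log2 difference of 0.025 and an SD of 0.53, which holds real differences as well as error. Gadd45a is thus ordinary for its brightness, and Gadd45g is towards the low edge of its neighbours without standing clear of them.

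For Gadd45b the comparison is limited by the floor. Among its 500 neighbours above both floors, 0 lay as far from 0 as its bound of 2.00, but only 142 of them were bright enough on average to allow such a difference with both signals above the floor. Taken without a floor, Gadd45b differed by 2.11, a value that rests on a control signal below the floor, and 4 of 500 neighbours (0.80%) lay as far from 0. The 4, named after their values were seen, were all higher in the Ad-PDK4 pool: Ect2, a regulator of cytokinesis, the centromere protein gene Itgb3bp, the condensin subunit Ncapd2 and Pdia2, a protein disulfide isomerase of the pancreas. With the _x_at and _s_at probe sets left out, the share above both floors was 51.2%, and under the higher floor it was 18%. In these settings Gadd45b had only a bound (0.25 and 0.40), set against measured differences of its neighbours. Both shares are therefore upper limits and do not place the gene among them. Genes are not replicates, and these shares describe 2 arrays.

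**Figure D2:**
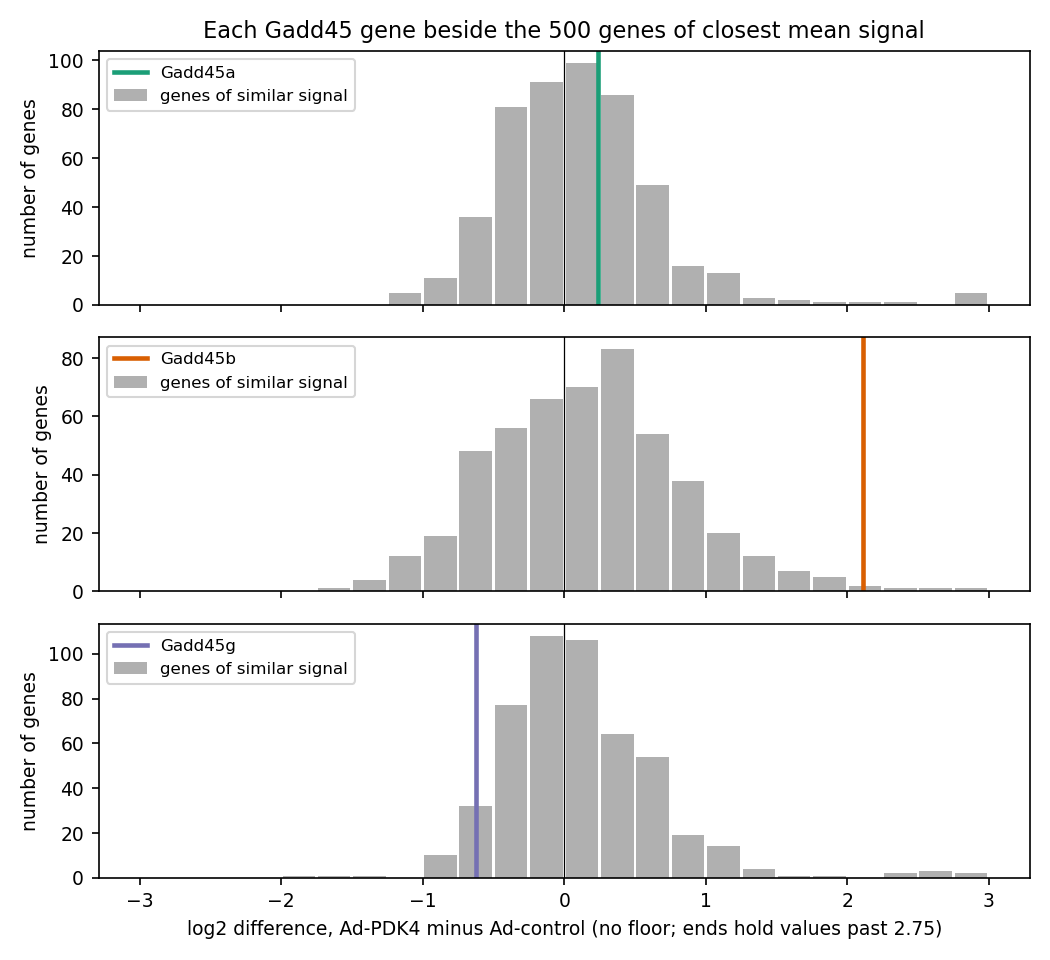
Number of genes by log2 difference (Ad-PDK4 minus Ad-control, no floor) among the 500 named genes of closest mean signal to each Gadd45 gene, with the gene itself as a coloured line. The line of Gadd45b at 2.11 has 4 genes beyond it, while Gadd45a at 0.24 lies inside the bulk and Gadd45g at -0.63 on its lower flank.

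The genes whose pair of signals was closest to each member were found by the distance between log2 signals over the 2 arrays. For Gadd45b they were Pdia2 (signal 380.3 in the Ad-PDK4 pool and 83.8 in the Ad-control pool), the replicative DNA ligase Lig1, Ss18l1, the centromere protein Cenpf and Itgb3bp, at distances of 0.062 to 0.13. For Gadd45a they were Fam117b, Noa1, Ptpn21, Cfp and Cnot3, at 0.013 to 0.028. For Gadd45g they were Nudt6, Lce3b, Clcn2, Ptprj and Rab30, at 0.053 to 0.070. With only 2 arrays such a match is a coincidence of brightness and difference and says nothing about control.

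**Figure D3:**
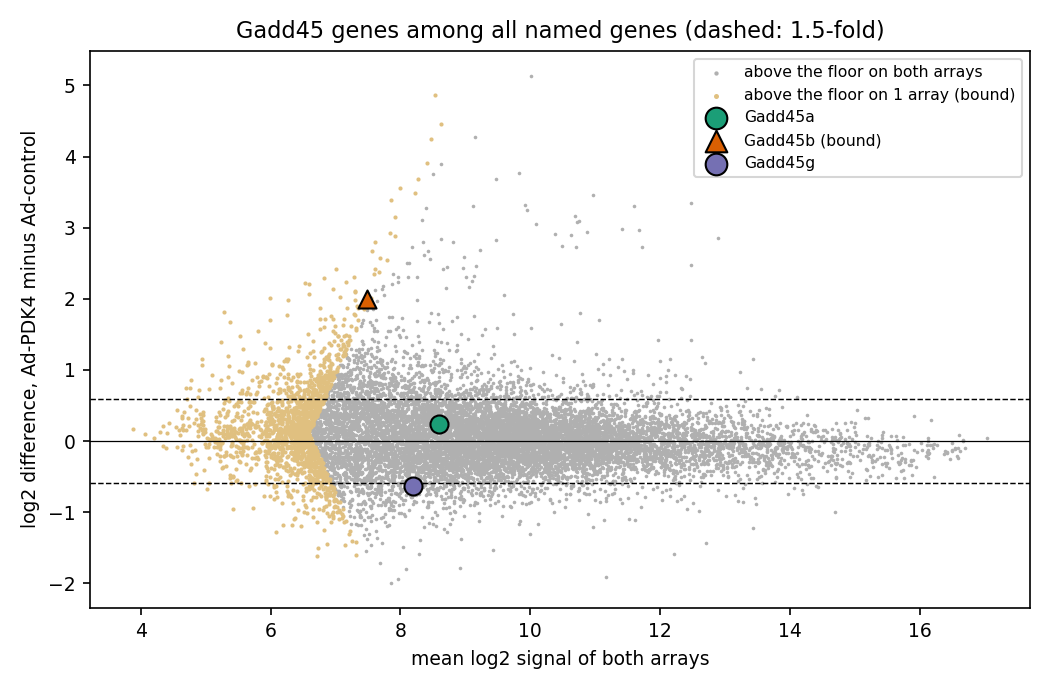
Log2 difference (Ad-PDK4 minus Ad-control) against the mean log2 signal of both arrays for all named genes measured on at least 1 array, with the 3 Gadd45 genes marked. The triangle is the bound of Gadd45b at 2.00, and Gadd45g at -0.63 lies just past the lower 1.5-fold line.

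Among genes whose proteins bind Gadd45 proteins, Cdk1, Cdkn1a and Pcna were past 1.5-fold and higher in the Ad-PDK4 pool, and Map3k4 and Gadd45gip1 lay within it. Cdk1, the mitotic kinase that Gadd45a and Gadd45b inhibit in complex with cyclin B1, had a signal of 4298 in the Ad-PDK4 pool and 654.9 in the Ad-control pool, 6.63-fold higher. Cdkn1a, which encodes p21, had 1252 in the Ad-PDK4 pool and 252.3 in the Ad-control pool, and Pcna had 6576 in the Ad-PDK4 pool and 3969 in the Ad-control pool. Map3k4, the kinase that Gadd45 proteins activate, differed by -0.19, and Gadd45gip1 (CRIF1), a partner that is also a mitochondrial ribosome protein, by 0.20. Another probe set of Map3k4 gave 0.085. In all, 3 of 5 measured partners lay past 1.5-fold, all higher, set beside 11.0% of all genes on that side. The list median was 0.74, and Map2k7 and Ccnb1 were not analysed here. Gadd45b was thus higher in the same pool as Cdk1, Cdkn1a and Pcna, Gadd45a was not past 1.5-fold there, and Gadd45g was lower.

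Among the p38 and JNK kinases downstream of the Gadd45 proteins, and the genes around them, 1 of 17 measured lay past 1.5-fold on the higher side and 2 on the lower, set beside 11.0% and 5.58% of all genes. The list median was -0.17. The lower genes were Mapk12, a p38 isoform (-0.87), and Map2k6, a kinase that activates p38 (-0.79), followed by Mapkapk2 (-0.43), a substrate of p38. The phosphatase Dusp10, which dephosphorylates p38 and JNK, was the highest (0.70), and Map2k4 and Jun both gave 0.24, although the other probe set of Jun gave -0.27.

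Of 8 other measured genes of growth arrest, DNA damage and stress, Ddit4l, an inhibitor of mTOR signalling, was past 1.5-fold (1.10, with 1.17 on another probe set) and 6 lay within it. For Atf3, a stress-induced transcription factor, only a bound could be had: its signal was 12.0 in the Ad-PDK4 pool, below the floor, and 144.7 in the Ad-control pool, so it was at least 1.43-fold lower. Ppp1r15a, also called Gadd34, gave 0.38, Ddit4 0.51 and Ddit3, also called Gadd153, 0.018, while Ppp1r15b gave -0.26 and Trib3 -0.27 (0.56 on its other probe set). Among p53 targets, the class to which Gadd45a belongs, 4 of 17 lay past 1.5-fold on the higher side and 1 on the lower. Of all genes, 11.0% and 5.58% did so. The median of the p53 targets was 0.15. Beside Cdkn1a (2.33) the highest were Phlda3 (0.91) and the nuclease gene Aen (0.82, with 1.40 on another probe set). The lowest were the death receptor gene Fas (-0.74), Btg2 (-0.35) and the damage recognition gene Ddb2 (-0.32). Gadd45a, at 0.24, lay near the middle of that list.

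Of 21 measured factors known to act on Gadd45 transcription, 3 lay past 1.5-fold on the higher side and 1 on the lower, around a median of 0.042, shares not far from the 11.0% and 5.58% of all genes. Brca1, which has been linked to induction of Gadd45a, was higher (1.86, but 0.23 on another probe set), as was Stat5a (0.98), and the p53 relative Trp73 was at least 1.91-fold higher, being below the floor in the Ad-control pool. Egr1, an early response factor, was lower (-0.91), and Smad4 (-0.36) and the CCAAT-binding subunit Nfya (-0.31) were the next lowest. Myc, a repressor of Gadd45a, gave 0.51. Named after their values were seen, for their known link to Gadd45b, the NF-kB subunit Rela gave 0.23 and the liver receptors Nr1i3, for which Gadd45b is a coactivator, and Ppara gave -0.21 and -0.032. Another probe set of Ppara gave 0.12.

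Gadd45b is itself an early response gene in many cells. Of 26 other measured immediate early genes, 0 were past 1.5-fold higher and 4 lower, set beside 11.0% and 5.58% of all genes. Another 19 lay within 1.5-fold and 3 (Fos, Klf4 and Atf3) had only a bound under it. The list median was -0.15 with bounds counted at their value. Fos, a subunit of AP-1, had a signal of 110.4 in the Ad-PDK4 pool and 44.4 in the Ad-control pool, on the same sides of the floor as Gadd45b, and was at least 1.19-fold higher. The lowest were Csrnp1 (-1.99), Plk3 (-1.79) and Ier2 (-0.93), and the highest were Fosl2 (0.57, with -0.96 on its other probe set), Junb (0.55) and Myc (0.51). Genes of growth hormone and cytokine feedback are the class nearest to Gadd45g. Of 13 measured, 4 lay past 1.5-fold on the higher side and 2 on the lower, set beside 11.0% and 5.58% of all genes. The list median was -0.19. Cish (-1.54) and Osmr (-0.98) were lower like Gadd45g and Pim3 gave -0.43, while Cdkn1a (2.33), Bcl6 (0.87) and Pim1 (0.83) were higher. The other probe set of Bcl6 gave 1.33 and that of Pim1 0.32, under 1.5-fold. Cdkn1a is counted in the partner, p53 target and cytokine lists alike. DNA demethylation and excision repair is a process in which Gadd45a takes part. Beside the 11.0% and 5.58% of all genes, 0 of its 9 measured genes lay past 1.5-fold on the higher side and 1 on the lower. The genes of this list had a median of -0.14. They ran from Ercc4 (-0.60, with 0.36 on another probe set), Ing1 (-0.46) and Smug1 (-0.37) to Tet2 (0.14), Taf12 (0.17) and Apex1 (0.31). Other probe sets of Ing1 and Tet2 also had the opposite sign (0.12 and -0.11).

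**Figure D4:**
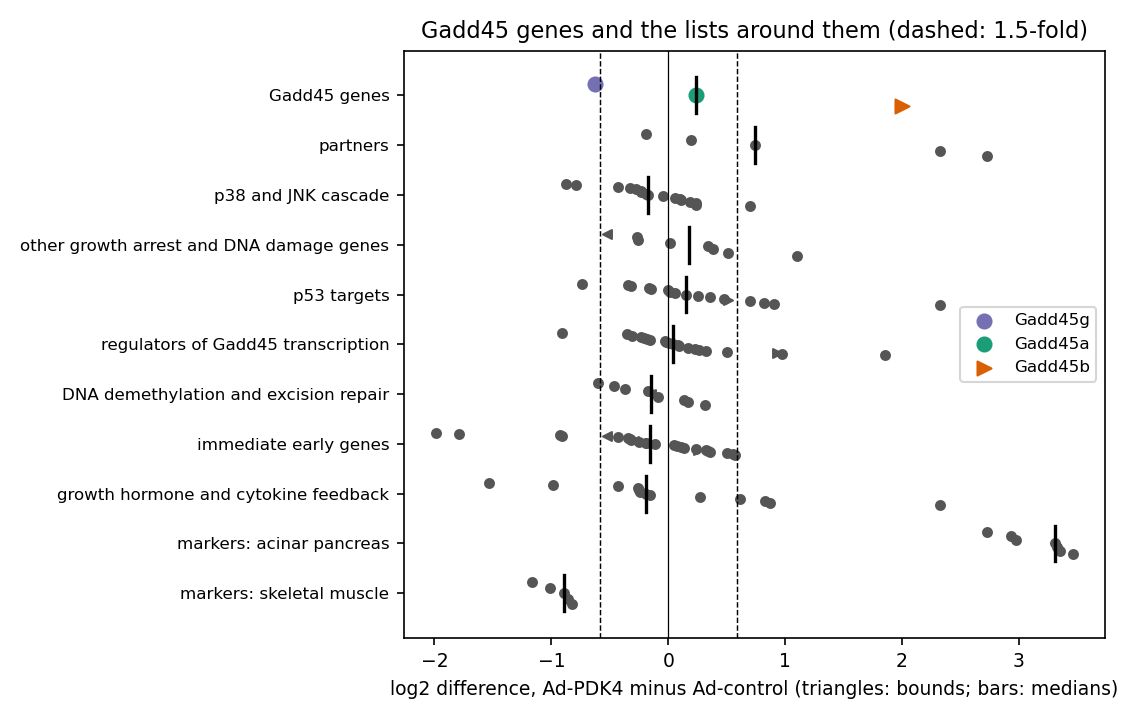
Log2 difference (Ad-PDK4 minus Ad-control) of the 3 Gadd45 genes, of the genes in each list around them and of the acinar pancreas and skeletal muscle markers. Triangles are bounds, bars are list medians, dashed lines mark 1.5-fold. Gadd45b at 2.00 lies on the side of Cdk1 and Cdkn1a and of the 7 pancreas markers, Gadd45g at -0.63 on the side of the muscle markers.

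The pools also differed in transcripts of other tissues. All 7 measured markers of acinar pancreas, from Prss2 (2.72) to Ctrb1 (3.46), were higher in the Ad-PDK4 pool, with a summed signal of 58855 there and 6677 in the Ad-control pool. Of 6 skeletal muscle markers 5 were measurable and all 5 were lower, while Actn3 was below the floor in both pools. The summed signal of all 6 was 2174 in the Ad-PDK4 pool and 4290 in the Ad-control pool. Both measurable neutrophil markers, S100a8 (0.66) and S100a9 (0.61), were higher, while Cxcr2 was below the floor in both pools. The macrophage markers Vsig4 (-1.19) and Clec4f (-1.13) were lower, 3 others of that list lay within 1.5-fold and Marco, below the floor in the Ad-PDK4 pool, was at least 1.40-fold lower, while of 5 endothelial markers Pecam1 (0.71) was higher. The 6 hepatocyte markers and the measurable stellate, T and NK and B cell markers were within 1.5-fold. Of 2 measurable cholangiocyte markers, 1 lay within it and Krt19 (16.9 in the Ad-PDK4 pool and 122.9 in the Ad-control pool) was at least 1.22-fold lower. The cholangiocyte genes Krt7 and Sox9, the T and NK genes Cd3e and Nkg7 and the B cell gene Cd79a were below the floor in both pools. Summed signals were 390746 in the Ad-PDK4 pool and 413283 in the Ad-control pool for the hepatocyte markers. For the neutrophil markers, Cxcr2 included, they were 620 in the Ad-PDK4 pool and 374 in the Ad-control pool. Gadd45b was higher in the pool with more acinar and neutrophil transcript, and Gadd45g lower in the pool with less muscle transcript. The part of these cells in the Gadd45 differences was not tested, and in pooled tissue a change in the number of cells of a type cannot be told apart from a change in RNA per cell.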

How the data were processed

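Expression was measured in 2 pooled liver RNA samples on Affymetrix arrays from biotin-labelled cRNA, per the labels. The deposited values are signal intensity on a linear scale, 1 per probe set, and how the authors summarised probes and corrected background was not given in the sources used here. Of 45101 probe sets, 64 controls were set aside and 34945 carried exactly 1 gene symbol in the platform annotation. Probe sets with several symbols were not named. Of 34958 probe sets with 1 symbol, 34754 were found in RefSeq by Entrez identifier, and 0 of those had another symbol there.

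Signals were put on the log2 scale and centred on the median difference (a shift of -0.015 was taken off). A gene is represented by its probe set of highest mean log2 signal. A value below the floor was set to the floor, which gives a bound, and a gene below it on both arrays has no difference. The genes named from a pathway list are its 3 highest and 3 lowest by difference, taken where both arrays measured them, and any bound past 1.5-fold. Marker genes and Rela, Nr1i3 and Ppara were named after their values were seen. So were Fos, Klf4 and Atf3, whose bounds are under 1.5-fold and which fall outside that rule. The 8 pathway lists and 10 marker lists, like the family members, were chosen with earlier results of these data known. The neighbour shares were taken over genes above both floors, and for Gadd45b also without a floor, an alternative added after the data were seen. Counts over all genes had been planned for genes above both floors, and here they also hold genes above 1 floor, since Gadd45b is one of these. Alternatives were 2 other floors, 5 other centrings, other probe set choices and other numbers of neighbours. The calculation was tested on simulated data, with changes planted only in genes above both floors and brighter on average than the Gadd45 genes. That test did not cover bounds or signals as dim as theirs. The number of arrays limits the precision. Calculations used Python 3.11.15, pandas 2.3.3, numpy 2.4.6 and statsmodels 0.14.6.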

Additional observations from a re-analysis of the deposited data

How the results depend on the processing

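Gadd45a kept its direction and its side of 1.5-fold under the 8 other floors, centrings and probe set choices first listed, and gave 0.78 with the poly-A controls set to 0, a setting added after the data were seen. Gadd45b stayed higher, as a bound with only the Ad-PDK4 signal above the floor does by construction. Its bound was 0.40 after raising the floor to the 70th percentile, 0.25 without _x_at and _s_at probe sets and 2.54 with the poly-A controls. As the median of its probe sets it has no value. Gadd45g stayed lower, at -0.083 with the poly-A controls. The share of similar genes as far from 0 was 63.2% for Gadd45a, against 56.2% under the higher floor, 68.4% with quantile normalization and 51.8% with probe sets combined. For Gadd45b it was 0%, against 0.80% with the lower floor (30th percentile), 18% under the higher one and 51.2% without _x_at and _s_at probe sets. The last 2 shares rest on bounds of Gadd45b and are upper limits. Without a floor the share was 1.0%, 0.80% and 1.6% with 200, 500 and 1000 neighbours. For Gadd45g it was 18.4%, against 34.0% under the higher floor (where it too had only a bound), 14.4% with quantile normalization and 12.8% with probe sets combined. Of the 106 measured pathway genes, 14 were 1.5-fold higher and 10 lower, set beside 11.0% and 5.58% of all genes. With the higher floor 9 were higher. On the lower side there were 16 with the lower floor and 6 with the higher. The number of genes measured also changes with the floor. Over all named genes, 1335 were at least 1.5-fold higher and 676 lower (957 and 540 among the 10389 above both floors). These counts were 2714 and 1707 under the lower floor, 540 and 276 under the higher one, and 851 higher with probe sets combined. At 2-fold, 434 were higher and 108 lower (280 and 76 above both floors), against 1270 and 595 under the lower floor, 150 and 23 under the higher one, and 258 and 64 with probe sets combined. With the hybridization controls set to 0 the split at 1.5-fold was 2832 higher and 225 lower, so 92.6% of calls were higher in place of 66.4%. With the poly-A controls it was 5904 and 58 (99.0%). No list gene past 1.5-fold changed its sign in any alternative run, but the shifts from the spike-in controls are too small to reverse such a gene. All 152 genes followed (the list genes and Pdk4) moved by at least the probe set SD of 0.35 in at least 1 alternative. This count was fixed in advance, because setting the poly-A controls to 0 adds 0.54 to every gene. It therefore does not show how stable single genes are. No paired analysis was possible because each group is 1 pool, and for the same reason no replicate could be left out. All control values of Gadd45b lie below the main floor, the 50th percentile, so at that floor its difference is known only as a bound. Under the lower floor its brightest probe set lay above both floors and gave a difference of 2.10.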
